A study of Homo sapiens with 60 samples.

Results

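Cholesterol synthesis and its control by SREBP2 were followed through 26 genes in SW1783 cells, a human line established from an astrocytoma. The genes were taken by symbol from the deposited table of 60675 genes, and all 26 were found and were abundant enough to be among the 17919 genes tested. They comprise 8 enzymes of the mevalonate and isoprenoid steps, 3 of the steps from squalene to lanosterol, 9 that convert lanosterol to cholesterol, the transcription factor SREBF2 with its 3 retention proteins SCAP, INSIG1 and INSIG2, and 2 sterol carriers. The study treated the cells for 24 h with single agents and sequenced RNA from 60 libraries in 22 groups. One group received vehicle, 3 groups received a drug at 10 µM (wortmannin and LY294002, both inhibitors of phosphoinositide 3-kinase, and thioridazine, a phenothiazine antipsychotic), and 18 groups received a water extract of 1 of 6 medicinal plants or fungi at 500 (high), 100 (medium) or 20 (low) µg/mL. The extracts were of Poria Cocos (poria), Atractylodis Rhizoma (atractylodes), Glycyrrhizae Radix (licorice), Panax Ginseng (ginseng), Angelicae Gigantis Radix (angelica) and Paeoniae Radix (peony). Angelica and peony had 2 libraries at each dose, the third of each not analysed here, and every other group had 3.

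The vehicle was DMSO, at 0.1% in the sample labels and at another strength in the series text. That text also allows lower doses for extracts that were toxic at the top dose, whereas the labels of these samples give the doses above. All comparisons with vehicle used the same 3 vehicle libraries. Their sample codes form a set of their own, so set and treatment cannot be told apart there, whereas the 3 drugs share a set and so do the 3 doses of an extract. The labels do not say whether replicates were separate cultures, so p-values reflect only how these libraries vary, which may be technical. Libraries held 19.45 to 30.87 M counts. By differences among replicates, 4 libraries stood apart (atractylodes high 1, licorice medium 3, ginseng low 1 and angelica low 2). Angelica low had only 2 libraries, which differed, and replicate 2 was taken for its lower correlation with libraries of other groups. Peony high replicate 1 stood apart by another measure, with a count in 37765 genes against 22528 to 23832 in the other libraries, and had the smallest total. Without it, every call made on the 26 genes in comparisons other than those of peony high was made again. Of 10 astroglial markers, VIM (6020 CPM in vehicle, CPM being a gene's count relative to its library's total), CD44, SOX9, SLC1A3 and NES were expressed in all libraries. The defining genes GFAP, S100B, AQP4, SLC1A2 and ALDH1L1 were at 0.205 CPM or less in vehicle, so these markers of mature astrocytes were absent or nearly so. Peony high replicate 1 was the only library with over 1 CPM of GFAP, AQP4, SLC1A2 or ALDH1L1. Nearly all of the summed astroglial markers in vehicle came from VIM and CD44 (2750 CPM), so their sum says little of the others. The summed astroglial markers were below the vehicle libraries (8640 to 9040 CPM) in every treated group but atractylodes high and medium and ginseng low. They were at 6360 to 6540 CPM in thioridazine, 6870 to 7180 CPM in licorice high and 6850 to 7610 CPM in peony high, and their part in the results below was not tested. Of 6 neuronal markers SNAP25 (20.4 CPM) and of 9 markers of epithelium, blood and endothelium PTPRC (8.73 CPM) were expressed in vehicle, and the others were below 1 CPM. The sum of the 9 was 5.05 to 6.2 CPM in thioridazine, 5.71 to 7.62 CPM in licorice high and 10.8 to 16.2 CPM in peony high, against 9.44 to 9.83 CPM in vehicle. The neuronal sum was highest in wortmannin (35.4 to 38.5 CPM, against 21.8 to 23.8 CPM in vehicle). In vehicle SNAP25 made up most of the neuronal sum and PTPRC most of the other, and neither sum was tested against the results.

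The mevalonate pathway builds isoprenoid units from acetyl-CoA, and the branch through squalene joins and cyclises them to lanosterol, which is trimmed to cholesterol. The transcription factor SREBP2, encoded by SREBF2, switches on most of these enzymes. When sterols are plentiful in the endoplasmic reticulum, SCAP and the INSIG proteins hold SREBP2 there. When sterols are scarce, SCAP escorts it to the Golgi, where proteases release its active part. Brain cells depend on their own synthesis, since lipoproteins of the blood do not cross the blood-brain barrier, and INSIG1 is itself a target of SREBP2.

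RefSeq start sites on GRCh38.p14 gave a promoter of 300 bases (250 before the start and 50 from it) for 23 of the 26 genes. The promoters below belong to the 3 genes that rose most with thioridazine, to SCAP, which did not change, and to SREBF2, chosen after the motifs were counted because it alone held the sterol regulatory element core. Capitals mark that core, TCACNCCAC, and the NF-Y box, CCAAT, each read on both strands. The INSIG1 promoter is at chr7:155297628-155297927 on the plus strand, MSMO1 at chr4:165327419-165327718 on the plus strand, HMGCS1 at chr5:43313363-43313662 on the minus strand, SREBF2 at chr22:41832855-41833154 on the plus strand and SCAP at chr3:47475892-47476191 on the minus strand.
INSIG1: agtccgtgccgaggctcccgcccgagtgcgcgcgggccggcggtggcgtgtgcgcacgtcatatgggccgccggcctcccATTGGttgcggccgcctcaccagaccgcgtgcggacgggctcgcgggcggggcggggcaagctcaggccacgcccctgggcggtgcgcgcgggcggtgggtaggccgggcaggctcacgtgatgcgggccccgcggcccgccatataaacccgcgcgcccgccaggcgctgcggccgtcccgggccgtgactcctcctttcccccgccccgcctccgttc
MSMO1: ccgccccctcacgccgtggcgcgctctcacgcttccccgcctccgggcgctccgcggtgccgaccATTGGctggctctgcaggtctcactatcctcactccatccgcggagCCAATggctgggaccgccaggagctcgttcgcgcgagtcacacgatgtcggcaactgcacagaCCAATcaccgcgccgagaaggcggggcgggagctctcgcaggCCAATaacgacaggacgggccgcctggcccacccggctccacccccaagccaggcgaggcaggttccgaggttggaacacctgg
HMGCS1: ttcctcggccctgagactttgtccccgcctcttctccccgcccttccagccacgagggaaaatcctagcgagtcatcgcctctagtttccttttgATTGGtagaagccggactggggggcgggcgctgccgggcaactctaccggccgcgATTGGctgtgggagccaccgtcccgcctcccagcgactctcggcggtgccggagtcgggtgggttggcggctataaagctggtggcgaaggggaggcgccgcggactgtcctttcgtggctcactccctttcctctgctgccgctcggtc
SREBF2: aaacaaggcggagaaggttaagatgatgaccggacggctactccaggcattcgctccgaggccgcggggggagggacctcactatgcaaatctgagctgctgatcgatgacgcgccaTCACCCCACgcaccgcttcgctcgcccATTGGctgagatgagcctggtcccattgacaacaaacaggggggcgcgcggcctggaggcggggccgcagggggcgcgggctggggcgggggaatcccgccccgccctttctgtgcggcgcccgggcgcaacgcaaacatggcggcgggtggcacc
SCAP: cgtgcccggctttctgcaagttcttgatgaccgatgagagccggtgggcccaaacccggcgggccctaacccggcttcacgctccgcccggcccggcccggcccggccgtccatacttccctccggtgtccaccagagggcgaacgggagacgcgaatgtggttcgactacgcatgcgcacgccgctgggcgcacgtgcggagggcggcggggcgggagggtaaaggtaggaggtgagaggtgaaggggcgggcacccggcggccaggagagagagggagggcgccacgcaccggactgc
The MSMO1 promoter held 4 CCAAT boxes, HMGCS1 held 2, INSIG1 and SREBF2 held 1 each, and SCAP held none. A CCAAT box was found in 16 of the 23 promoters (69.6%), against 35.7% of 27305 promoters in the table. The 7 without one were those of SCAP, LBR, GGPS1, PMVK, INSIG2, CYP51A1 and IDI1. Only the first start site listed for each gene was used, so other starts were not searched. The IDI1 window (chr10:1056655-1056954, minus strand) lay upstream of the annotated span of the counted gene (chr10:1039152-1049170). The Sp1-type box GGCGG stood in 22 of 23 (95.7%, against 58.6%), and the sterol regulatory element core in 1 of 23 (4.3%, against 1.1%). Only the spelling TCACNCCAC was searched for that core, so elements that differ from it were not counted. These matches describe letters in the window and were not tested.

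Thioridazine raised 24 of the 26 genes and lowered none. Among all genes tested, 48.4% passed the threshold (an adjusted p below 0.05, from the quasi-likelihood F-test of edgeR, adjusted by Benjamini-Hochberg) and 24.6% were higher. The median change of the 26 genes was a log2 fold change of 1.24, against 0.02 over all genes tested, and 16 of them more than doubled. Summed over the 26 genes, the level went from 1415 ± 9.2 CPM in vehicle to 3926 ± 12 CPM (SD, n = 3 each). The libraries of the 24 genes did not overlap between thioridazine and vehicle. Such separation was not counted over all genes tested, so there is no share to set beside it. In bulk RNA, a change in how many cells express a gene and a change in RNA per cell cannot be told apart.

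**Figure D1:**
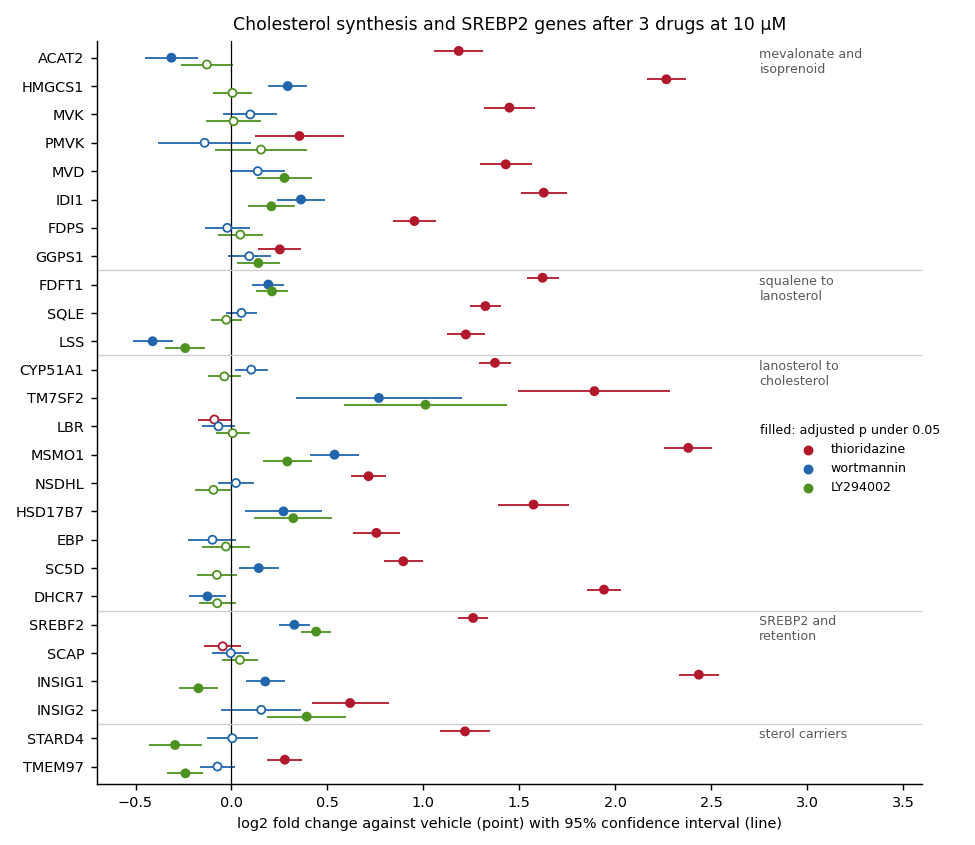
Log2 fold change against vehicle (x axis) of each of the 26 genes (rows, grouped by pathway step) for thioridazine, wortmannin and LY294002, 3 libraries a group; points are estimates, lines are 95% confidence intervals and filled points passed the threshold. Thioridazine points reach 2.44 (INSIG1) and leave only SCAP and LBR near 0, whereas the other drugs stay between -0.41 (LSS) and 1.01 (TM7SF2).

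All 8 genes of the mevalonate and isoprenoid steps rose with thioridazine, but unevenly. HMGCS1, which condenses acetyl-CoA with acetoacetyl-CoA at the entry of the pathway, stood at 65.9, 63.0 and 62.3 CPM in the vehicle libraries. In thioridazine it stood at 313, 312 and 295 CPM, a log2 fold change of 2.27 ± 0.05 (SE, adjusted p = 1.02e-39). Every thioridazine library was thus far above every vehicle library, and no other gene of these steps rose as much. IDI1, the isomerase that activates isopentenyl diphosphate, rose by 1.63 ± 0.06, from 47.4 to 146 CPM. MVK, the mevalonate kinase, rose by 1.45 ± 0.06 and MVD, the decarboxylase that yields isopentenyl diphosphate, by 1.43 ± 0.07 on the log2 scale. PMVK, the kinase between them, rose by 0.35 ± 0.12 (adjusted p = 0.00971), from 20.5 to 22.9 CPM in vehicle to 26.7 to 28.0 CPM. The step encoded by PMVK therefore changed least among the 3 consecutive ones, and the intervals of the change do not overlap (0.12 to 0.59 for PMVK, 1.32 to 1.58 for MVK and 1.29 to 1.56 for MVD). ACAT2, a thiolase that supplies acetoacetyl-CoA, rose by 1.18 ± 0.06. Its annotated exons lie partly opposite those of TCP1 and SOD2, and no source used here gives the strand setting of the counting. FDPS, which makes farnesyl diphosphate, rose by 0.95 ± 0.06. GGPS1, which draws farnesyl diphosphate into geranylgeranyl diphosphate and away from sterols, rose by 0.25 ± 0.06 (adjusted p = 0.000131), from 35.3 to 39.3 CPM to 44.0 to 45.6 CPM. Another gene, TBCE, covers 37.3% of the exon bases of GGPS1 on the same strand, so reads could be split between them.

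The 3 enzymes from squalene to lanosterol rose together, within 1.22 and 1.62 on the log2 scale. FDFT1, the squalene synthase that commits farnesyl diphosphate to sterols, went from 97.2 ± 3.8 to 299 ± 1.8 CPM (SD, n = 3 each). SQLE, the squalene epoxidase and one of the pathway's control points, measured 77.8, 80.7 and 77.7 CPM in vehicle and 195, 198 and 198 CPM in thioridazine (log2 fold change 1.32 ± 0.04). LSS, the cyclase that forms lanosterol, rose by 1.22 ± 0.05.

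Of the 9 genes from lanosterol to cholesterol, 8 rose. MSMO1, the oxidase that starts removal of the methyl groups at carbon 4, read 45.2, 47.2 and 47.0 CPM in vehicle and 235, 236 and 254 CPM in thioridazine, a log2 fold change of 2.38 ± 0.06 (adjusted p = 2.80e-36). NSDHL and HSD17B7, which act after it in the same demethylation, rose by 0.71 ± 0.04 and 1.57 ± 0.09. DHCR7, the reductase that makes cholesterol from 7-dehydrocholesterol, read 42.2, 37.7 and 40.8 CPM in vehicle and 154, 153 and 156 CPM in thioridazine (1.94 ± 0.05). MSMO1 and DHCR7 were thus the most induced enzymes of the late pathway. CYP51A1, the lanosterol demethylase, went from 143 ± 2.5 to 370 ± 1.1 CPM, a log2 fold change of 1.37 ± 0.04. Another annotated gene covers 79.4% of the exon bases of CYP51A1 on the same strand, so reads could be split between them. EBP, the isomerase, and SC5D, the desaturase, rose by 0.75 ± 0.06 and 0.90 ± 0.05. The step after CYP51A1 can be carried out by either TM7SF2 or LBR, a sterol reductase that is also a lamin-binding protein of the inner nuclear membrane. TM7SF2 rose by 1.89 ± 0.20 but from very little, 0.66, 0.85 and 1.16 CPM in vehicle (19 to 31 counts) to 3.08, 3.43 and 3.40 CPM. LBR measured 65.5, 62.7 and 62.6 CPM in vehicle and 59.2 to 60.1 CPM in thioridazine. Its libraries did not overlap, but the difference of -0.09 ± 0.04 did not pass the threshold (adjusted p = 0.0904).

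The regulators split. INSIG1 showed the largest change of the 26 genes, from 168, 171 and 173 CPM in vehicle to 914, 929 and 929 CPM in thioridazine, 5.41-fold (log2 fold change 2.44 ± 0.05, adjusted p = 2.63e-40). SREBF2 read 88.9, 84.2 and 90.9 CPM in vehicle and 212, 204 and 215 CPM in thioridazine, a rise of 1.26 ± 0.04. INSIG2, whose gene is known to depend less on SREBP than INSIG1, rose by 0.62 ± 0.10 from a low level, 8.82 to 9.46 CPM, to 12.2 to 14.9 CPM. SCAP, the escort, measured 90.7, 88.8 and 93.4 CPM in vehicle and 89.8, 87.2 and 87.2 CPM in thioridazine. These overlapped, and the difference of -0.05 ± 0.05 (95% interval -0.14 to 0.05, adjusted p = 0.448) excludes a change of the size seen in SREBF2. The sterol carriers also rose: STARD4, a soluble carrier that moves sterol between membranes, by 1.22 ± 0.06, and TMEM97, an endoplasmic reticulum protein known as the sigma-2 receptor, by 0.28 ± 0.05.

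**Figure D2:**
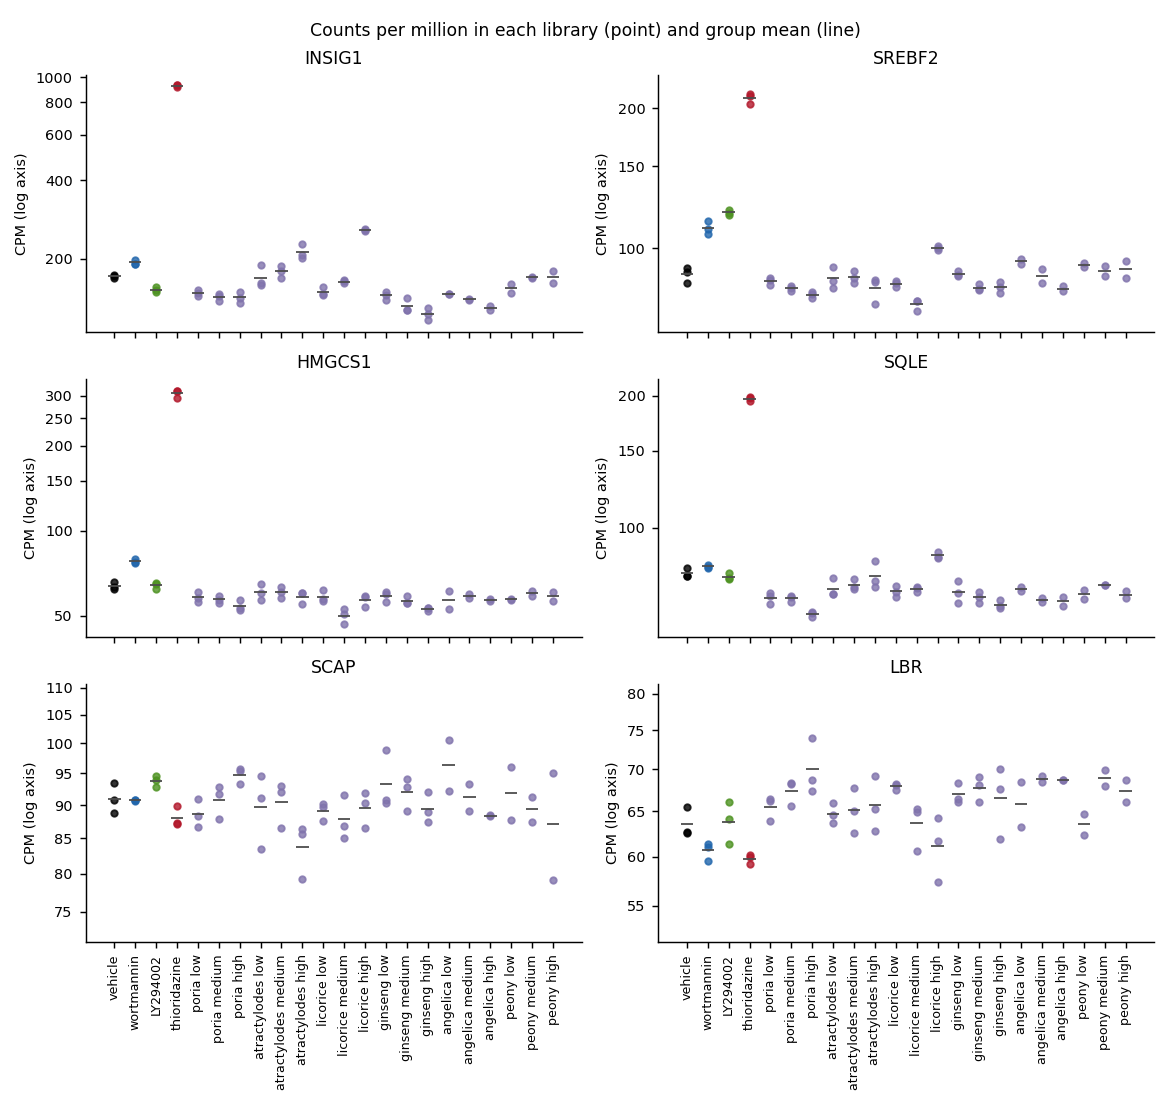
CPM on a log axis (scaled for each panel) of 6 genes in each library (points) of the 22 groups, with group means as lines. Thioridazine libraries stand alone at the top for INSIG1 (914 to 929 CPM), SREBF2, HMGCS1 and SQLE, and licorice high comes second for INSIG1 (254 to 261 CPM), while SCAP shows no such step and LBR is lowest on average in thioridazine.

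Wortmannin and LY294002 moved fewer of these genes and by less, in both directions. With wortmannin, 9 rose and 3 fell, where 31.7% of all genes tested passed. LY294002 was followed by 9 rises and 4 falls, with 39.3% of all genes passing. The medians of the 26 changes were 0.10 and 0.01, against 0.02 in each comparison over all genes. Genes higher after both drugs were SREBF2, MSMO1, IDI1, FDFT1, HSD17B7 and TM7SF2, and LSS was lower after both. SREBF2 measured 110, 107 and 114 CPM in wortmannin and 121, 118 and 119 CPM in LY294002, log2 fold changes of 0.33 ± 0.04 and 0.44 ± 0.04 over vehicle. LSS went the other way, to 50.7, 46.4 and 52.3 CPM in wortmannin (-0.41 ± 0.05) and to 55.4, 56.7 and 55.9 CPM in LY294002 (-0.24 ± 0.05), each below every vehicle library (64.0 to 67.8 CPM). The gene of the factor and that of one of its enzymes thus differed in sign after both drugs. After wortmannin, ACAT2 also fell by 0.31 ± 0.07 and DHCR7 by 0.13 ± 0.05, while HMGCS1 rose by 0.29 ± 0.05, SC5D by 0.14 ± 0.05 and INSIG1 by 0.18 ± 0.05. After LY294002, INSIG2 (0.39 ± 0.10), MVD (0.28 ± 0.07) and GGPS1 (0.14 ± 0.06) rose, and STARD4 (-0.29 ± 0.07), TMEM97 (-0.24 ± 0.05) and INSIG1 (-0.17 ± 0.05) fell.

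The direct comparison of both kinase inhibitors called 9 of the 26 genes, against 16.4% of all genes tested. Wortmannin was higher for INSIG1 (0.35 ± 0.05, adjusted p = 8.06e-07), STARD4, HMGCS1, MSMO1, SC5D, TMEM97 and CYP51A1, and lower for LSS (-0.17 ± 0.05) and SREBF2 (-0.11 ± 0.04, adjusted p = 0.04). INSIG1 libraries stood at 191, 198 and 190 CPM in wortmannin and 151, 149 and 155 CPM in LY294002, on either side of the vehicle libraries. Without wortmannin replicate 2, 5 of the 9 calls were made, all higher. Without LY294002 replicate 2 or 3 there were 6, again all higher, so both lower calls depended on these libraries. Thioridazine, compared with the drugs of its own set, was higher for 24 genes against wortmannin (38.7% of all genes passed, 18.9% higher) and for 21 against LY294002 (40.0% passed, 19.5% higher), and lower for none. INSIG1 again differed most, by 2.26 ± 0.05 and 2.61 ± 0.05. The 3 genes that rose over vehicle but did not pass over LY294002 were INSIG2 (0.23, adjusted p = 0.062), PMVK (0.20) and GGPS1 (0.11).

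Among extracts, licorice at the high dose raised most of the set. It raised 16 genes and lowered 1, where 30.9% of all genes passed and 15.9% were higher, and the median of the 26 changes was 0.19. INSIG1 read 261, 257 and 254 CPM, above every vehicle library (0.59 ± 0.05, adjusted p = 4.96e-14). CYP51A1 read 187, 199 and 194 CPM, a rise of 0.44 ± 0.04 over the 141 to 146 CPM of vehicle. All 3 squalene to lanosterol enzymes rose, by 0.13 to 0.15, and so did both sterol carriers, by 0.22 each. Further rises were those of TM7SF2 (0.68 ± 0.22), ACAT2 (0.37 ± 0.07), MVK (0.33 ± 0.07), INSIG2 (0.33 ± 0.10), DHCR7 (0.32 ± 0.05), MVD (0.27 ± 0.07), FDPS (0.23 ± 0.06), MSMO1 (0.20 ± 0.06) and SREBF2 (0.19 ± 0.04). HMGCS1, among the genes most induced by thioridazine, instead fell with licorice high by 0.16 ± 0.05, to 53.7, 58.9 and 58.3 CPM, all below vehicle. This fall was not called without vehicle replicate 1 (14 higher, 0 lower) or without licorice high replicate 1 (15 higher, 0 lower). The sum over the 26 genes was 1657 ± 20 CPM (n = 3).

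**Figure D3:**
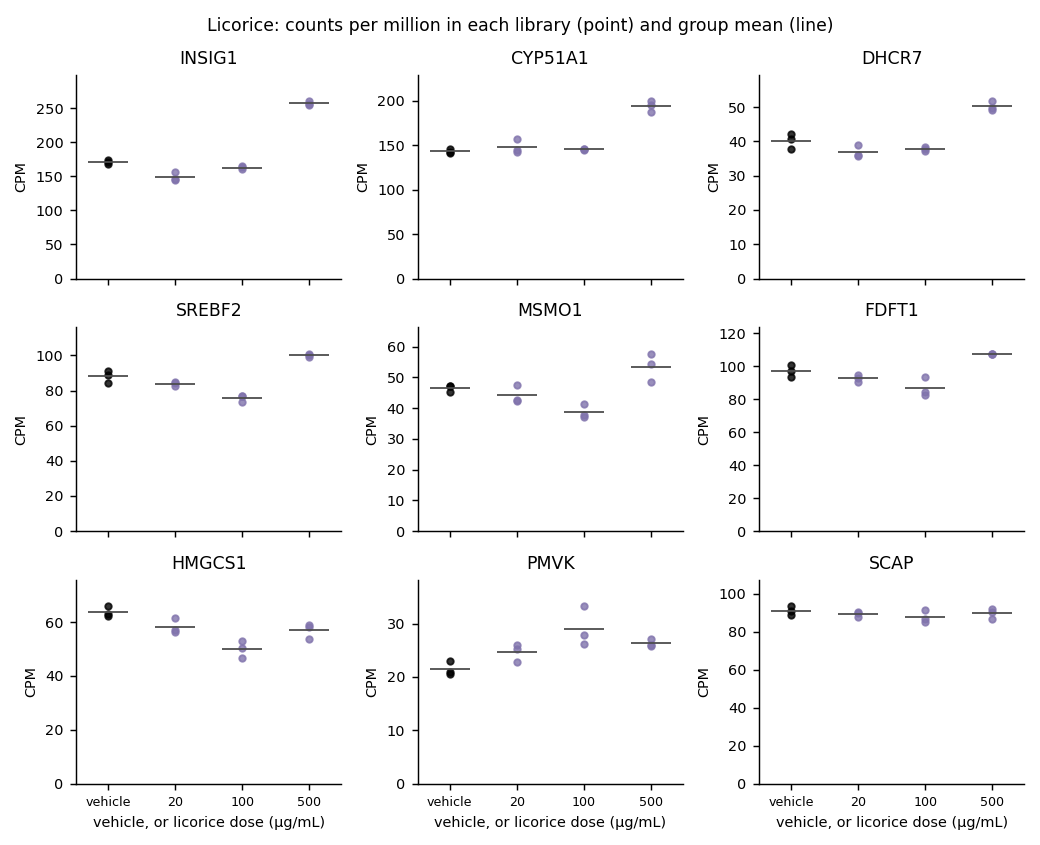
CPM of 9 genes in vehicle and in cells given licorice at 20, 100 and 500 µg/mL, 3 libraries each (points) with group means (lines), on axes from 0. INSIG1, CYP51A1 and DHCR7 are highest at 500 µg/mL (INSIG1 at 254 to 261 CPM against 144 to 165 CPM at the lower doses), HMGCS1 and MSMO1 are lowest at 100 µg/mL, and SCAP is level.

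The licorice doses, which share a sample-code set, were also compared with each other, without reference to vehicle. High over low called 14 genes higher and 1 lower (18.2% of all genes passed, 9.02% higher), led by INSIG1 (0.79 ± 0.05) and DHCR7 (0.44 ± 0.05). The gene that was lower was LBR (-0.15 ± 0.04), at 57.4, 61.7 and 64.2 CPM in high and 68.3, 68.1 and 67.5 CPM in low. That call was lost without licorice high replicate 1 and with no filter on low counts (12 higher, 0 lower in each). High over medium, a comparison added after values were seen, called 13 higher and none lower (8.10% passed, 4.38% higher). There INSIG1 differed by 0.66 ± 0.05, MSMO1 by 0.46 ± 0.06 and SREBF2 by 0.40 ± 0.04. The medium dose itself had 4 genes above and 6 below vehicle (25.2% of all genes passed). HMGCS1 (-0.35 ± 0.05, at 50.5, 52.8 and 46.7 CPM), MSMO1 (-0.26 ± 0.07), SREBF2 (-0.22 ± 0.04), FDFT1, SC5D and SQLE fell, while PMVK (0.44 ± 0.12), ACAT2, MVD and FDPS rose. Licorice medium replicate 3 stands apart, and without it the medium dose kept 5 falls and no rise. Without all 4 libraries that stand apart it had 7 falls and 2 rises, 8 of these 9 among the calls made with all libraries. At the low dose INSIG1 (-0.20 ± 0.05) and SQLE (-0.14 ± 0.04) fell and none rose (3.29% passed), but 0 or 1 of the 2 was called when any vehicle library or low replicate 2 or 3 was left out. By these calls, INSIG1 was below vehicle at the low dose, not different at the medium dose (-0.07 ± 0.05) and above it at the high dose. The low doses of poria, ginseng and angelica also called INSIG1 lower, and those of atractylodes and peony did not. All used the same vehicle libraries, so an effect of low licorice and an offset of those libraries cannot be told apart.

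**Figure D4:**
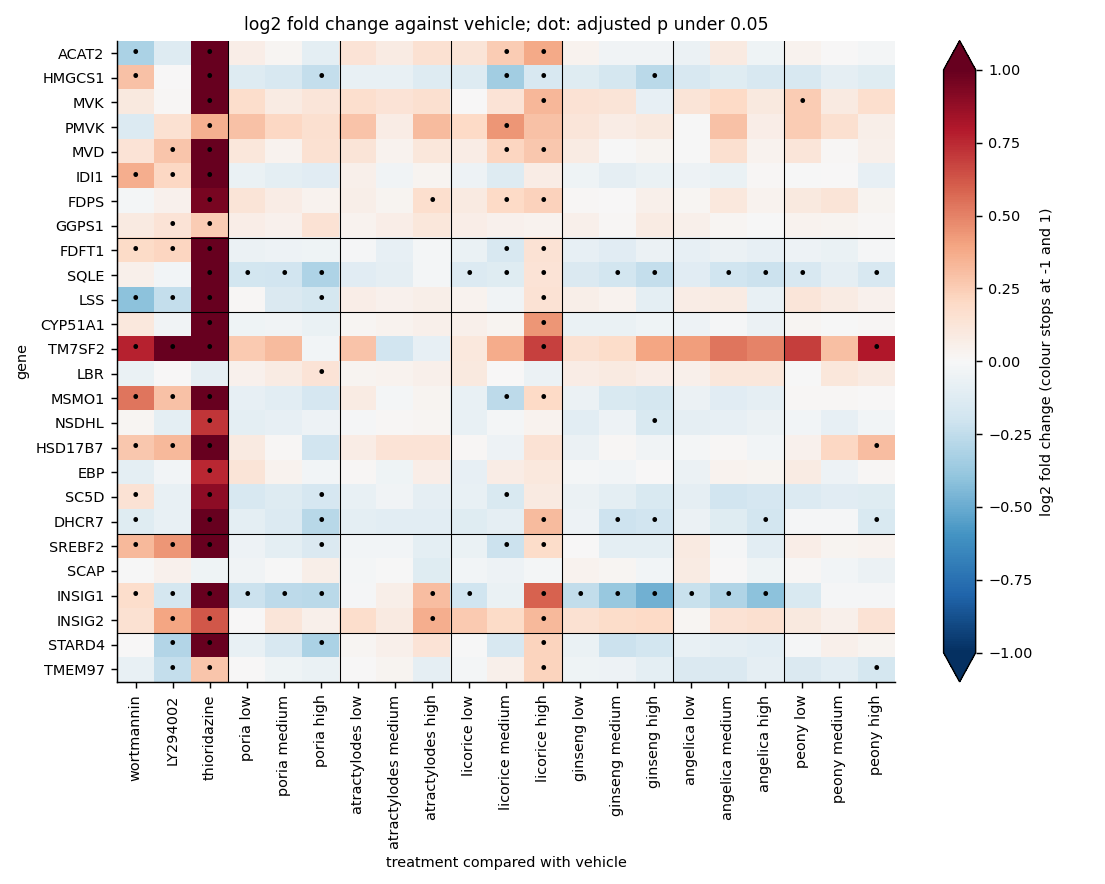
Log2 fold change against vehicle (colour, limited to -1 and 1) of the 26 genes (rows, grouped by pathway step) in 21 treatments (columns); a dot marks an adjusted p below 0.05. The thioridazine column is red in all rows but SCAP and LBR, licorice high is the reddest extract column, and the INSIG1 and SQLE rows are blue in most other extract columns.

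The other extracts moved few of the 26 genes, and the calls gathered on INSIG1 and SQLE, which were lower. Over the 18 extract comparisons with vehicle, INSIG1 was called lower in 10 and higher in 2, and SQLE lower in 11 and higher in 1. HMGCS1 had a negative log2 fold change in all 18 (-0.35 to -0.07) but passed in 4, while INSIG2 and FDPS were negative in none. SCAP passed in none of the 21 comparisons with vehicle, and its changes with extracts lay between -0.12 and 0.08. Since these comparisons share their vehicle libraries, their agreement in sign is not independent.

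Ginseng lowered INSIG1 at each dose. INSIG1 read 129, 122 and 116 CPM at the high dose (-0.48 ± 0.05, adjusted p = 2.21e-09), 140, 126 and 127 CPM at the medium dose (-0.38 ± 0.05) and 149, 145 and 139 CPM at the low dose (-0.24 ± 0.05), all below the 168 to 173 CPM of vehicle. High over low, within one set, INSIG1 was the gene called, at -0.24 ± 0.05 (adjusted p = 0.00842, 0.653% of all genes passed), though this call was lost without ginseng low replicate 1 or without high replicate 2 or 3. Ginseng high called 5 genes lower and none higher (7.25% passed, 4.20% lower), the others being HMGCS1 (-0.27 ± 0.05), SQLE, DHCR7 and NSDHL. Ginseng medium called 3, INSIG1, DHCR7 and SQLE (0.569% passed), and ginseng low 1, INSIG1 (0.592% passed). Without vehicle replicate 1, ginseng high kept 3 calls, medium 1 and low 0. Medium also came to 1 call without vehicle replicate 3 or its own replicate 2 or 3, and low to 0 without vehicle replicate 2 or 3 or its own replicate 2 or 3 and to 2 without its replicate 1, which stands apart.

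Poria high lowered 8 genes and raised LBR (0.14 ± 0.04), with 11.6% of all genes passing and 6.41% lower. STARD4 (-0.32 ± 0.07), SQLE (-0.31 ± 0.04), DHCR7 (-0.27 ± 0.05), INSIG1 (-0.27 ± 0.05), HMGCS1 (-0.24 ± 0.05), LSS, SC5D and SREBF2 (-0.15 ± 0.04) fell. SQLE read 63.9, 64.3 and 62.5 CPM there, below every vehicle library. Poria medium (1.47% passed) and poria low (0.419% passed) each called INSIG1 and SQLE lower. High over low called STARD4, LSS and DHCR7 lower (5.51% passed), but 0 or 1 gene when poria low replicate 1 or 2 or poria high replicate 1 or 3 was left out. Without vehicle replicate 3, poria high kept 5 falls and no rise, and without its own replicate 3 it kept 5 falls and 1 rise. The LBR rise was also lost without vehicle replicate 2, without poria high replicate 2 and with no filter on low counts. Poria low called 0 or 1 gene when any of its own or the vehicle libraries was left out.

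Angelica high (6.46% of all genes passed) lowered INSIG1 (-0.41 ± 0.06), SQLE (-0.21 ± 0.05) and DHCR7 (-0.18 ± 0.05). INSIG1 read 127 and 131 CPM there, 140 and 139 CPM at the medium dose and 146 and 146 CPM at the low dose, always below vehicle. Without replicate 2 angelica high kept 1 call. Angelica medium called INSIG1 and SQLE (2.91% passed) and angelica low called INSIG1 (1.75% passed). Medium came to 1 call when either of its libraries was left out, and the INSIG1 call at the low dose was lost when any of its own or the vehicle libraries was. High over low called SREBF2 lower (-0.20 ± 0.05, 0.943% passed), a call lost when angelica low replicate 2 or either high library was left out. Atractylodes differed from these in the sign of INSIG1, at its high dose. That dose raised INSIG1 (228, 206 and 201 CPM, 0.31 ± 0.05), INSIG2 (0.37 ± 0.10) and FDPS (0.17 ± 0.06). These are 11.5% of the 26 genes, no more than the 13.9% of all genes that passed. Without replicate 1, which stands apart, or without vehicle replicate 1, 1 of these calls was made. Without vehicle replicate 2 it called 3 higher and 2 lower, without its own replicate 2 it called 5 higher and 1 lower, and without its replicate 3 it called 6 higher and 1 lower. Without the 4 libraries that stand apart it called 1 higher and 1 lower. INSIG1 was also the gene called in high over low (0.32 ± 0.05, adjusted p = 7.77e-06), 3.8% of the 26, where 4.10% of all genes passed. Atractylodes medium and low called none of the 26 (1.06% and 0.804% passed).

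Peony high called 5 of the 26 genes (19.2%), near the 20.7% of all genes that passed. TM7SF2 (0.80 ± 0.24) and HSD17B7 (0.31 ± 0.11) were higher, and TMEM97 (-0.17 ± 0.05), SQLE (-0.16 ± 0.05) and DHCR7 (-0.15 ± 0.05) lower. None of these was called without replicate 1, the library with a count in 37765 genes and over 1 CPM of astrocyte markers, in which TM7SF2 read 1.98 CPM against 1.18 CPM in replicate 2, and the part of that excess of genes in these calls was not tested. Peony low called SQLE lower (-0.16 ± 0.05) and MVK higher (0.25 ± 0.08, 5.23% passed), peony medium called none (2.55% passed), and high over low called none (5.90% passed). Peony high came to 2 calls without vehicle replicate 1 and to 3 without vehicle replicate 3, and peony low to 0 when either of its libraries or vehicle replicate 1 or 2 was left out.

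The levels of the 26 genes differed widely before any treatment. Per kilobase of annotated exon in vehicle, INSIG1 stood highest at 46.8 CPM per kb, followed by CYP51A1 at 39.9 and NSDHL at 22.4. The lowest were MVK (1.77), HSD17B7 (1.13) and TM7SF2 (0.261 CPM per kb), the last being the least of the late enzymes beside LBR at 12.1. Over the 21 group means without thioridazine, SQLE (r = 0.84), CYP51A1 (0.83), INSIG1 (0.80), DHCR7 (0.76) and FDFT1 (0.70) followed the mean of the other 25 genes most closely. LSS (-0.00) and GGPS1 (0.02) did not follow it, and LBR ran opposite to it (-0.74). With thioridazine included, over 22 group means, LSS reached 0.87 and LBR -0.62. These Pearson correlations describe group means that come from the same libraries and carry no test. Outside the lists, the genes most like the set over the 21 group means were SLC1A4, a neutral amino acid transporter (r = 0.89), MINDY2, ASAH1 (the lysosomal acid ceramidase), LIN52, ZNF32 and P2RX4 (0.86 to 0.87). In thioridazine, which that measure left out, SLC1A4 was higher by 1.07 ± 0.05 and ASAH1 by 1.08 ± 0.04, and the other 4 by 0.22 to 0.52.

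Neighbouring pathways were followed through lists of their genes, to be read against the 48.4% of all genes tested that passed with thioridazine. All 10 genes of SREBP1-linked fatty acid synthesis rose (median 1.06), among them SCD, the stearoyl-CoA desaturase, from 266 ± 7.6 to 1390 ± 28 CPM (2.39 ± 0.05), FADS2 (1.98 ± 0.05) and FASN, the fatty acid synthase (1.44 ± 0.07). LPIN1 and FADS1 rose by 1.26 ± 0.05 and 1.01 ± 0.05, and ACSS2 from 34.2 ± 1.4 to 73.2 ± 0.97 CPM. Of 13 genes for sterol transport and storage, 10 rose and 2 fell. NPC1 and NPC2, which export cholesterol from lysosomes, rose by 1.45 ± 0.05 and 0.85 ± 0.05, and NCEH1, a cholesteryl ester hydrolase, fell by 0.73 ± 0.04. GRAMD1C rose by 1.33 ± 0.54, from 0.142 to 0.366 CPM. Among 7 genes of LXR and sterol efflux, 3 rose and 3 fell. ABCA1, the main efflux pump, fell from 49.2 ± 0.92 to 24.6 ± 0.43 CPM (SE of the log2 change 0.08), and MYLIP, an LXR-driven ubiquitin ligase, fell by 1.01 ± 0.10. ABCG1 and SMPDL3A rose by 1.08 ± 0.42 and 1.27 ± 0.15 from 0.277 and 2.62 CPM. Of 15 proteases, degradation factors and co-factors of the SREBP system, 5 rose and 7 fell. RNF145, a sterol-responsive ubiquitin ligase, rose by 1.07 ± 0.05 and ERLIN1, which restrains SREBP activation, fell by 0.48 ± 0.04, and UBE2G2, a ubiquitin-conjugating enzyme, by 0.24 ± 0.04. Users of isoprenoids (prenylation, dolichol and ubiquinone) showed 3 rises and 4 falls of 15, a share near that of all genes. PDSS1, which builds the ubiquinone tail, fell by 1.19 ± 0.11, while its partner PDSS2 rose by 0.37 ± 0.07 and SRD5A3, of dolichol synthesis, by 0.26 ± 0.05. Of 5 sterol oxidation genes 3 were tested: CYP27A1 rose (1.53 ± 0.18) and CYP46A1, the neuronal cholesterol hydroxylase, fell (-0.67 ± 0.23), both averaging below 3 CPM, and CYP39A1 was at -0.41 ± 0.28 (adjusted p = 0.283).

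In licorice high, where 30.9% of all genes passed, 5 of the 10 fatty acid genes rose and 1 fell, with FADS1 at 0.69 ± 0.05, SCD at 0.14 ± 0.05 and FASN at 0.04 ± 0.07 (adjusted p = 0.732). NPC1 rose by 0.33 ± 0.05 and MYLIP fell by 0.58 ± 0.09 there, whereas ABCA1 was at -0.00 ± 0.08. In licorice medium, where 25.2% of all genes passed, 1 fatty acid gene rose and 6 fell, with a median of -0.22. In wortmannin and LY294002, where 31.7% and 39.3% of all genes passed, 1 fatty acid gene rose in each and 4 and 5 fell. The gene that rose was ACSS2, in wortmannin (0.35 ± 0.05) and in LY294002 (0.47 ± 0.05). NPC2 rose in both (0.62 ± 0.05 and 0.56 ± 0.05) while NPC1 was at 0.06 ± 0.05 in wortmannin (adjusted p = 0.414) and fell in LY294002 (-0.13 ± 0.05).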

How the data were processed

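RNA of SW1783 cells was made into stranded libraries and read as paired ends, per the labels' protocols. The deposited values are expected counts of each gene, which the authors estimated and did not normalise between samples. Per the submitters' processing notes, Trim Galore 0.6.5, STAR 2.7.3a, RSEM 1.3.3 and GRCh38 were used, in roles those notes as given here do not state. The table has 279 columns, of which 60 match the samples and 219 were not used. Expected counts were rounded, since 9.5% were not whole numbers (tolerance 1e-06). Symbols were taken from GENCODE 29 and a gene name table, and 56558 genes had one.

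Genes were filtered with filterByExpr (minimum count 10, minimum total 15) and scaled by TMM. All 60 libraries entered 1 quasi-likelihood model of edgeR 4.0.16 in R 4.3.3, with 1 coefficient per group, which gives groups of 2 and 3 a shared spread. The common biological coefficient of variation was 0.051. The 31 comparisons were tested two-sided with Benjamini-Hochberg adjustment over all 17919 genes and a threshold of 0.05. SE is the size of a log2 fold change divided by the square root of F. CPM is the deposited count scaled to the TMM-adjusted library size, and CPM per kb divides it by the summed exon length of GENCODE 29. The fit was tested on simulated data, with changes placed in genes drawn from all those tested. For thioridazine against vehicle it recovered 20 of 50 changes of 1.25-fold, 26 of 50 of 1.5-fold and 46 of 50 of 4-fold. For peony high against vehicle these were 21, 32 and 44 of 50. False calls numbered 2 and 12. A gene that was not called may therefore still have changed by a small amount. A chi-square per degree of freedom of 2.33 to 25.39 over 54 replicate pairs showed no library deposited more than once within a group. Libraries of different groups were not compared in this way.

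Replicate numbers are shared between groups, but no comparison had every same-numbered pair correlated above 0.1 in its deviations, so the numbers were not used as pairs. Genes and lists were chosen with earlier results of these data known. All 26 genes are named. From each neighbouring list the genes named were the 3 with the smallest p-values in thioridazine and any called with a log2 change of at least 1, up to 6. The 6 genes of like pattern had at least 5 CPM on average. Alternatives were RLE size factors, no filter, DESeq2 1.42.0, each comparison fitted on its 2 groups alone, a replicate block, leaving out each library, and, chosen after seeing the data, leaving out the 4 libraries that stand apart, and the library with most genes detected. Exons of 12 of the 26 genes overlap exons on the opposite strand. Those of CYP51A1, GGPS1 and TM7SF2 overlap exons on the same strand (TM7SF2 by 0.5%). Pseudogenes of their name exist for 4 (FDPS, CYP51A1, HSD17B7 and TMEM97). The counts of all these genes are less certain.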

Additional observations from a re-analysis of the deposited data

How the results depend on the processing

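Thioridazine called 24 genes, all higher, under each alternative run but the fit on 2 groups alone, which called 25 (24 higher, and LBR lower), and no gene or count reversed in any. Licorice high stayed within 1.5 times its count in every alternative. Over all gene and comparison pairs, 803 kept their status, called or not called, with RLE size factors and 3 did not. With DESeq2, 792 kept it and 14 did not. Pairs not called in either fit are among those that kept their status.

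The counts that moved by over 1.5 times follow, high, medium and low being doses against vehicle. Fitted on 2 groups alone, poria medium called 5, atractylodes high 1 and low 1, licorice medium 5 and low 6, ginseng high 8 and medium 5, angelica high 5, medium 4 and low 0, peony high 2, medium 1 and low 6, atractylodes high over low 0, angelica high over low 0 and licorice high over medium 8. With no filter, atractylodes low called 1, licorice low 1, ginseng high 3, peony high 1, peony low 0 and angelica high over low 0. With the replicate block, ginseng low called 2, angelica high 5 and peony low 4, and no call was lost. DESeq2 called 2 in ginseng low and 1 in peony low, and RLE size factors 1 in peony low. Without the libraries that stand apart, atractylodes low called 2, ginseng medium 5 and low 2, angelica high 5 and medium 4, peony low 4, poria high over low 5 and angelica high over low 0. Without the library with most genes detected, peony high called 0. The cause was not tested.

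Leaving out 1 library at a time gave 9 to 11 calls for wortmannin, 12 to 13 for LY294002, 24 to 24 for thioridazine, 5 to 8 for poria high, 2 to 2 for poria medium, 0 to 1 for poria low, 1 to 7 for atractylodes high, 0 to 0 for its medium and low doses, 14 to 18 for licorice high, 5 to 9 for licorice medium, 0 to 2 for licorice low, 3 to 5 for ginseng high, 1 to 2 for ginseng medium, 0 to 2 for ginseng low, 1 to 3 for angelica high, 1 to 2 for angelica medium, 0 to 1 for angelica low, 0 to 6 for peony high, 0 to 0 for peony medium and 0 to 2 for peony low. Between treatments it gave 5 to 9 for wortmannin over LY294002, 21 to 22 and 23 to 24 for thioridazine over LY294002 and wortmannin, and, high over low, 0 to 3 for poria, 1 to 1 for atractylodes, 11 to 14 for licorice, 0 to 1 for ginseng, angelica and peony, and 9 to 13 for licorice high over medium. Where 1 library was left in a group, it was assumed to vary like the others.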
